A study of Homo sapiens with 8 samples.

Results

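The genes described here store and take up neutral lipid: the droplet proteins HILPDA, PLIN2 and PLIN3, the lipolysis genes PNPLA2 and ABHD5, the triglyceride synthesis genes DGAT1, DGAT2 and LPIN1, and the uptake genes VLDLR and FABP5. They were chosen by name, as every RefSeq transcript that belongs to 1 of these 10 genes, and all 10 were listed in the deposited table, with 16 of its 24812 transcripts. The table compares SQ20B, a cell line established from a human squamous cell carcinoma of the head and neck, in normoxia and after 16 h in 0.5% O2. Each condition had 4 libraries of poly(A)-selected RNA from the same line, with no genetic change and no added agent in either group, and the oxygen of the normoxia group was not given. The treatment text of the labels is the same for every sample and names 0.5% oxygen, so the groups rest on the source names, which separate normoxia from hypoxia. The table holds 1 FPKM value per transcript and condition, over the 4 libraries. FPKM counts the fragments of a transcript relative to its length and to the size of the library, so that levels of different genes can be set side by side. Values of single libraries were not analysed here. No spread between replicates, test or p-value is therefore given, and the table holds no counts that would give the depth behind a value.

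Cells keep surplus fatty acids as triglyceride in lipid droplets, which perilipins coat and lipases open again. Adipose triglyceride lipase, the product of PNPLA2, takes the first fatty acid off a triglyceride, ABHD5 activates it, and HILPDA is an inhibitor of it. Oxygen shortage stabilizes the HIF transcription factors, of which HILPDA is a textbook target, and hypoxic tumour cells are known to accumulate droplets.

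A change is the log2 ratio of hypoxia to normoxia after 0.1 FPKM was added to each value, which makes the changes of genes with low FPKM smaller. FPKM values were summed over the listed transcripts of a gene. A gene is said to pass the filter where its mean FPKM over the conditions was at least 0.5, and to be called where it also differed by 2-fold or more. VLDLR and HILPDA were higher in hypoxia by the largest amounts among the 10 genes, and LPIN1 was higher by a smaller amount. The genes of lipolysis and the final step of triglyceride synthesis differed little. Of these, PNPLA2 and DGAT1 lay near or below 0.5 FPKM, where the added constant makes changes smaller. Of the 10 genes, 8 passed the filter, and 2 of these were called higher and 0 lower. Over all genes that passed, 3.21% of 12106 were called higher and 2.62% were called lower. VLDLR lay below 0.5 FPKM in normoxia and passed only through its hypoxia value, so its place among the called genes follows in part from the filter. DGAT1 also lay below 0.5 FPKM in normoxia and passed through its hypoxia value. The median log2 change of the 8 genes was 0.26, beside -0.07 over all genes that passed. The 10 genes were chosen with earlier results of these data known, so their counts and median are a description only.

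**Figure D1:**
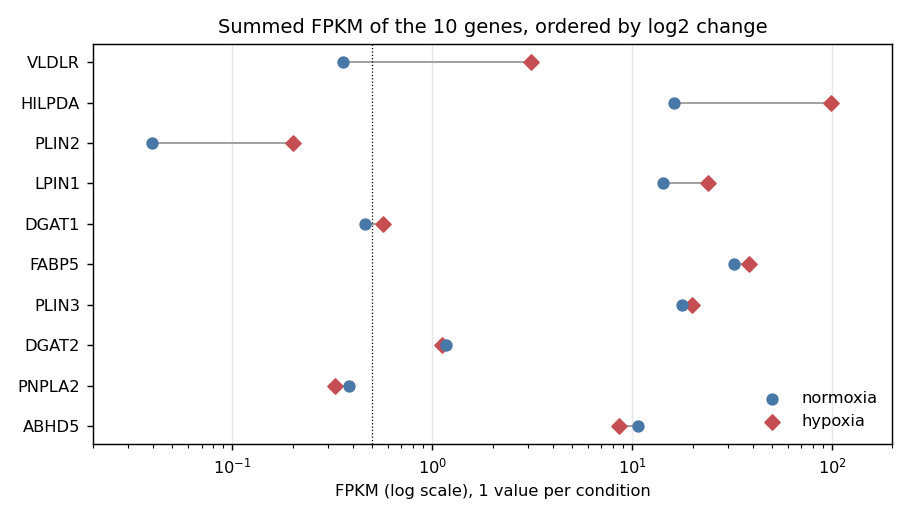
FPKM summed per gene in normoxia (circles) and hypoxia (diamonds) on a log axis, 1 value per condition, with the dotted line at 0.5 FPKM. VLDLR went from 0.356 to 3.13 FPKM and HILPDA from 16.2 to 99.0 FPKM, while the 2 values of DGAT2 nearly coincide and those of PLIN2 both lie far below the line.

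The promoters are shown first, since the letters that HIF binds can be looked for in them. RefSeq promoters (GRCh38.p14), each running from 250 bases before to 50 bases after a start site, were found for 6 of the 10 genes, with 3 start sites for LPIN1, 3 for ABHD5 and 1 each for VLDLR, PLIN2, PLIN3 and PNPLA2. The HIF core was searched for as ACGTG or GCGTG on both strands, with overlapping matches counted, so that a CACGTG counts on both. At least 1 match was present in 7 of the 10 promoters, beside 48.4% of all 35116 promoters of the same length. The windows of ABHD5 overlap, and the matches at its starts 1 and 2 are the same bases of the genome, counted for each start. By gene, 5 of the 6 held a match. No share over all genes is given beside this count, and genes with 3 start sites had more windows in which to hold one. VLDLR and PLIN2 held 5 matches each, a number reached by 1.98% of all promoters, and PLIN3 held 3, reached by 10.1%. PNPLA2 held 0. These are printed below with every match in capitals, as read on the strand of the gene (a match on the other strand then reads CACGT or CACGC). The VLDLR promoter lies at chr9:2621537-2621836 (plus strand), that of PLIN2 at chr9:19127443-19127742 (minus strand), that of PLIN3 at chr19:4867618-4867917 (minus strand) and that of PNPLA2 at chr11:818664-818963 (plus strand).
VLDLR: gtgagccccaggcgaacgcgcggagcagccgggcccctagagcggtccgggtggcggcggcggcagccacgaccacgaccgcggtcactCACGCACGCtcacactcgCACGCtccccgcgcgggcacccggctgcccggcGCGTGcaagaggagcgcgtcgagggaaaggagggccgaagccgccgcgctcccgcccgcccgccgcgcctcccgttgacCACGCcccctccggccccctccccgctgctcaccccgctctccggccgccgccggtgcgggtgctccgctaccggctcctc
PLIN2: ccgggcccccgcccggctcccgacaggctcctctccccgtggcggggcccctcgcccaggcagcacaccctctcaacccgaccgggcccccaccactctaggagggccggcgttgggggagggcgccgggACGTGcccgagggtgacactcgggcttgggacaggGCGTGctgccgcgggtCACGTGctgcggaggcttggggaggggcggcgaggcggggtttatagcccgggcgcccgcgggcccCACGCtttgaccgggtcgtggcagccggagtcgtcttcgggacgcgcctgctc
PLIN3: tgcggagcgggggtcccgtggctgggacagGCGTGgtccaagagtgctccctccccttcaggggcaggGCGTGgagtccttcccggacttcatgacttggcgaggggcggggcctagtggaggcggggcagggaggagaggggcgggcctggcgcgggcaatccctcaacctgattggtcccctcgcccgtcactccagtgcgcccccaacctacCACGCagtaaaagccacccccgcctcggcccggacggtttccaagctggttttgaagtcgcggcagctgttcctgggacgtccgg
PNPLA2: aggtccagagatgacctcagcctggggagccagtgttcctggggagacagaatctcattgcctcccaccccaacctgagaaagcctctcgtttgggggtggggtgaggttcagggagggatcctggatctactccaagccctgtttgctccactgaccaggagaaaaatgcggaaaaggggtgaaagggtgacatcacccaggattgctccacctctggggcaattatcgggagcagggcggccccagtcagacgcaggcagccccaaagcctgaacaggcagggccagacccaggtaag

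In VLDLR, 3 of the matches lay close together, from position -161 to position -139 relative to the start site, and 2 of these share 1 base. In PLIN2, matches began at positions -120 and -85, and a CACGTG from -69 to -64 gave 2 more. PLIN3, with 3 matches, had a log2 change of 0.18. LPIN1, with a log2 change of 0.75, held 1 match at each of 2 start sites and 0 at the other. A match is a description of the letters only, and binding was not measured here.

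**Figure D2:**
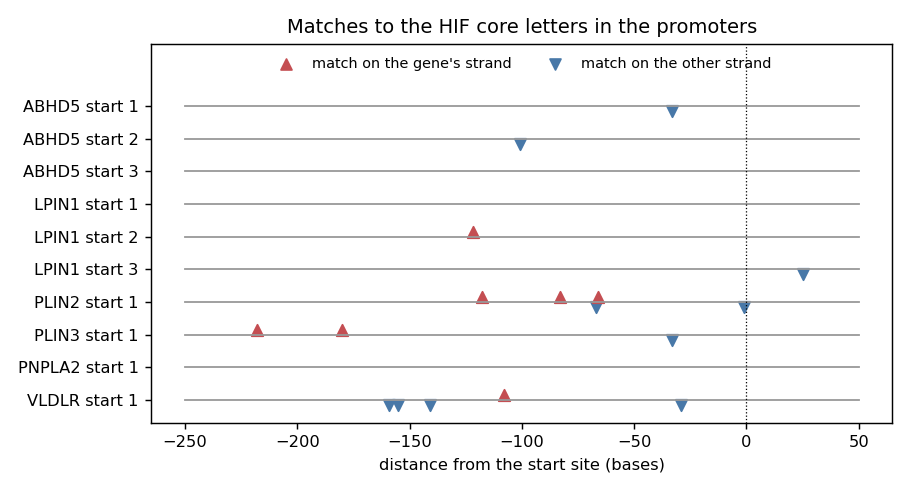
Positions of the HIF core letters in the 10 promoters, in bases from the start site (dotted line), with triangles pointing up for the strand of the gene and down for the other strand. VLDLR and PLIN2 carry 5 matches each, whereas PNPLA2, start 3 of ABHD5 and start 1 of LPIN1 carry 0.

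HILPDA (chromosome 7, 128095884 to 128098472 in hg19) had a summed level of 16.2 FPKM in normoxia and 99.0 FPKM in hypoxia. The log2 change was 2.61, or 6.12-fold with nothing added, and 36 of the 12106 genes that passed the filter had a larger one. HILPDA thus moved from percentile 69.1 of all 14528 gene levels in normoxia to percentile 94.7 in hypoxia, and its share of the summed FPKM of the 10 genes went from 17.3% to 50.7%. Both listed transcripts, which encode the same protein, were higher in hypoxia. NM_001098786 went from 14.0 to 86.0 FPKM and NM_013332 from 2.16 to 13.0 FPKM. Their log2 changes were 2.61 and 2.54, and the share of NM_001098786 in the summed level was 86.7% in normoxia and 86.8% in hypoxia. The isoform proportions of HILPDA were therefore nearly level while the total differed 6.12-fold.

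The perilipins coat the droplet surface. PLIN2, which in most cells is bound to droplets and is broken down without them, was listed with 1 transcript, NM_001122 (chromosome 9, 19115759 to 19127604). Its level was 0.0394 FPKM in normoxia and 0.200 FPKM in hypoxia. Both values lie far below the filter, at percentiles 0.489 and 6.49 of all gene levels. The ratio was 5.07 with nothing added and 2.15 with 0.1 added, a log2 change of 1.10. With 1 added it was 0.21, and with 0.01 added it was 2.09, so the size of this difference rests on the added constant. PLIN3, which moves between the cytosol and droplets, was the main perilipin among the 10 genes, with 17.7 FPKM in normoxia and 20.0 FPKM in hypoxia (chromosome 19, 4838346 to 4867780). Its log2 change was 0.18, at percentile 70.4 of the changes of all genes that passed. PLIN3 was above PLIN2 in both conditions.

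The transcripts of PLIN3 differed more than their sum. NM_001164194 carried 87.1% of the summed level in normoxia and 87.5% in hypoxia, and went from 15.4 to 17.5 FPKM. NM_005817 was listed at 1.68 FPKM in normoxia and 0.0382 FPKM in hypoxia, a log2 change of -3.69. NM_001164189 was listed at 0.597 FPKM in normoxia and 2.45 FPKM in hypoxia, a log2 change of 1.87. These minor transcripts moved in opposite directions, and together they had 2.28 FPKM in normoxia and 2.49 FPKM in hypoxia, 12.9% and 12.5% of the gene. Cufflinks shares the fragments of overlapping transcripts between them, and the counts behind this split were not analysed here, so whether the isoforms or their assignment differed was not tested.

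**Figure D3:**
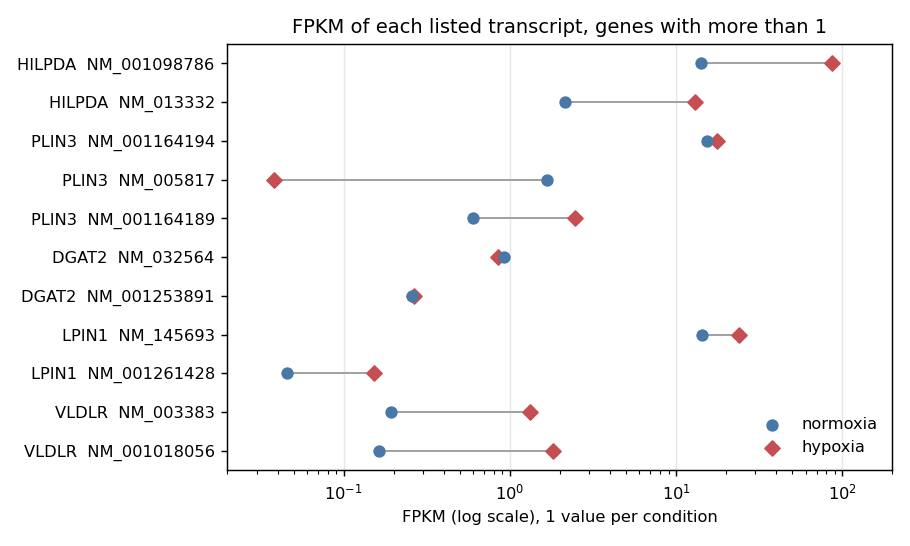
FPKM of each listed transcript of the 5 genes with more than 1, in normoxia (circles) and hypoxia (diamonds), on a log axis. The transcripts of HILPDA and of VLDLR lie higher in hypoxia, while NM_005817 and NM_001164189 of PLIN3 move in opposite directions.

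PNPLA2 (chromosome 11, 818901 to 825571) was listed with 1 transcript, NM_020376, at 0.383 FPKM in normoxia and 0.327 FPKM in hypoxia. It did not pass the filter, and its log2 change was -0.18. ABHD5, its activator (chromosome 3, 43732375 to 43764217), was listed with NM_016006 at 10.7 FPKM in normoxia and 8.58 FPKM in hypoxia, a log2 change of -0.31. Neither gene was called, and ABHD5 lay at percentile 28.5 of the changes of all genes that passed. With both columns brought to equal sums, the log2 changes were -0.0033 for PNPLA2 and -0.09 for ABHD5. In hypoxia, HILPDA was listed at 99.0 FPKM and the lipase that it inhibits at 0.327 FPKM.

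Triglyceride is made from phosphatidic acid, which lipins convert to diacylglycerol, and the DGAT enzymes then add the last fatty acid. LPIN1 (chromosome 2, 11817705 to 11967533) had a summed level of 14.3 FPKM in normoxia and 24.0 FPKM in hypoxia. Its log2 change of 0.75, or 1.68-fold, did not reach the limit of 2-fold, and 755 genes that passed had a larger change. NM_145693 carried nearly all of it, with 14.2 FPKM in normoxia and 23.9 FPKM in hypoxia. NM_001261428 was listed at 0.0459 and 0.151 FPKM. A further entry of the same locus, NM_001261429, has no symbol in the annotation used and was left out of the sum; it went from 1.20 to 1.92 FPKM.

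DGAT1, which resides in the endoplasmic reticulum (chromosome 8), was listed with NM_012079 at 0.458 FPKM in normoxia and 0.568 FPKM in hypoxia, just past the filter by its mean. Its log2 change was 0.26. The entry shares a locus (145515270 to 145550582) with HSF1, which was listed at 3.10 FPKM in normoxia and 2.16 FPKM in hypoxia. DGAT2, an unrelated enzyme for the same step that also acts at droplets (chromosome 11, 75479778 to 75512581), had 1.17 FPKM in normoxia and 1.11 FPKM in hypoxia, a log2 change of -0.07. Its transcripts NM_032564 and NM_001253891 had log2 changes of -0.10 and 0.03. The sign for DGAT2 turned with the scaling, to 0.14 with the columns scaled to equal sums and to 0.002 with the changes centred on their median. With nothing added, the ratio of hypoxia to normoxia was 1.24 for DGAT1 and 0.950 for DGAT2.

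VLDLR, a receptor that takes up triglyceride-rich lipoproteins (chromosome 9, locus 2535655 to 2654485), had a summed level of 0.356 FPKM in normoxia and 3.13 FPKM in hypoxia. The log2 change was 2.82, larger than that of HILPDA, and 22 of the genes that passed had a larger one. With nothing added the ratio was 8.79, and with 1 added the log2 change was 1.61. The level of VLDLR in hypoxia nevertheless remained low beside that of the other called gene, at percentile 39.6 of all gene levels. NM_003383 went from 0.194 to 1.32 FPKM, and NM_001018056, which lacks the exon for the O-linked sugar domain, from 0.162 to 1.81 FPKM. Their log2 changes were 2.27 and 2.86. The share of NM_001018056 was 45.6% in normoxia and 57.9% in hypoxia, so that the order of the transcripts turned. The order in normoxia rests on 0.194 against 0.162 FPKM, both low. Cufflinks shares fragments between these overlapping transcripts, so whether the isoforms or their assignment differed was not tested. VLDLR-AS1, a noncoding RNA listed at the same locus, went from 0.116 to 0.292 FPKM. The libraries were stranded, and the study's methods name standard settings for quantification without stating the strand setting, so reads of VLDLR and VLDLR-AS1 may not have been kept apart.

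FABP5, which carries fatty acids in the cytosol of epithelial cells (chromosome 8, 82192718 to 82197012), had the highest level of the 10 genes in normoxia, 32.1 FPKM, and 38.5 FPKM in hypoxia. Its log2 change was 0.26, at percentile 75.9 of the changes of all genes that passed. FABP5 has processed copies elsewhere in the genome, and how reads shared with them were assigned was not analysed here, so its level is uncertain. The order of the genes by level changed at the top: in normoxia FABP5 was above PLIN3, HILPDA and LPIN1, and in hypoxia HILPDA was above FABP5, LPIN1 and PLIN3. In both conditions ABHD5 came next, and DGAT2, DGAT1, PNPLA2 and PLIN2 lay at or below 1.17 FPKM. Whether neighbours in this order differ beyond the replicate error could not be told from 1 value per condition.

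**Figure D4:**
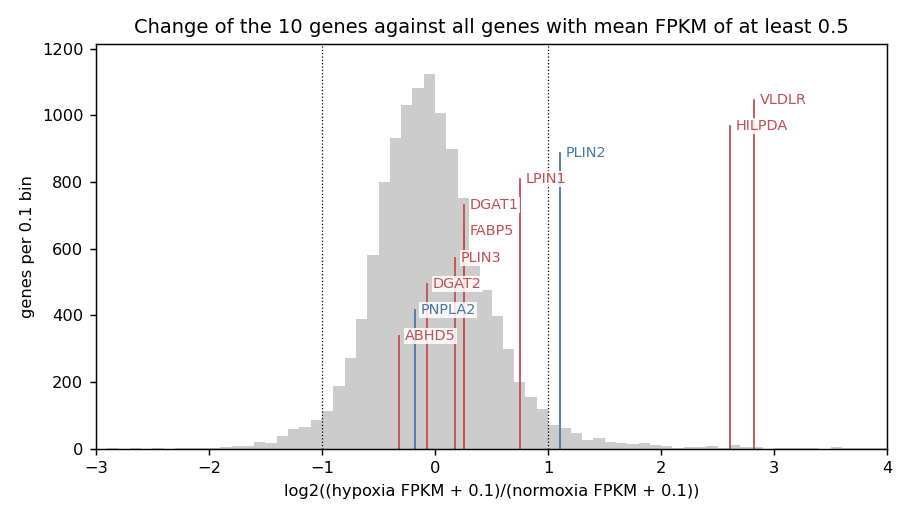
Histogram of log2 changes of the 12106 genes that passed the filter (grey, 0.1 per bin), with lines for the 10 genes (red where the gene passed the filter, blue where it did not) and dotted lines at the limits of 2-fold; genes beyond the axis are not drawn. HILPDA and VLDLR lie in the right tail at 2.61 and 2.82, while PLIN2 lies at 1.10 and the other genes lie between -0.31 and 0.75.

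Counted by transcript, 12 of the 16 entries of these genes passed the same filter. Of these, 5 were called higher (both of HILPDA, both of VLDLR and NM_001164189 of PLIN3) and 1 was called lower (NM_005817 of PLIN3). Over all 18190 transcripts that passed, 3.70% were called higher and 3.69% were called lower. The VLDLR transcripts passed only through their hypoxia values and NM_005817 only through its normoxia value, so these calls follow in part from the filter.

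Other genes of neutral lipid metabolism were examined in 8 lists of 94 genes, of which 67 were listed in the table and 60 passed the filter. Among these 60, 2 were called higher and 2 were called lower, beside the 3.21% and 2.62% of all genes. The higher genes were LPIN3, a paralog of LPIN1, with 0.932 FPKM in normoxia and 3.40 FPKM in hypoxia (log2 change 1.76), and ACSS2, which makes acetyl-CoA from acetate, with 11.7 and 32.8 FPKM (1.47). The lower genes were BSCL2, which encodes the droplet assembly protein seipin, with 1.15 and 0.460 FPKM (-1.16), and AUP1, a droplet protein of ubiquitin transfer, with 42.8 and 20.5 FPKM (-1.06). BSCL2 lay below 0.5 FPKM in hypoxia and passed the filter only through its normoxia value, so its call follows in part from the filter. Over the pseudocounts, scalings and the most abundant transcript alone, BSCL2 ranged from -1.31 to -0.35, so its call also depends on these settings. Its locus also held noncoding entries and the HNRNPUL2-BSCL2 readthrough, listed at 6.66 FPKM in normoxia and 7.98 FPKM in hypoxia. Reads of BSCL2 therefore cannot be told apart from theirs with certainty. The locus of AUP1 also held HTRA2 (NM_013247 at 12.8 and 9.45 FPKM), LOXL3 (3.24 and 1.96 FPKM) and DOK1, each lower in hypoxia. How reads were assigned among them was not analysed here. With both columns brought to equal sums, the changes of BSCL2 and AUP1 were -0.97 and -0.83, and neither gene was then called, whereas LPIN2 (1.11) and SLC27A3 (1.10) were called higher.

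The droplet coat and assembly list had the lowest median log2 change, -0.45, over 6 genes that passed, of which 5 lay below 0. This median was -0.17 without a filter and also with a mean of at least 1 FPKM, and -0.23 with equal sums. The 13 genes of fatty acid oxidation that passed had a median of -0.11 and ranged from -0.36 to 0.74. The highest was CPT1B, with 0.996 FPKM in normoxia and 1.74 FPKM in hypoxia. CPT1B shares its locus with CHKB, listed at 6.78 and 7.24 FPKM. The list named for sterol esterification held SOAT1 and LCAT, and also NCEH1, which encodes a hydrolase of such esters. The 11 genes of glycerolipid synthesis, the 6 of lipolysis, the 3 of sterol esterification and the 6 of the PPAR list had medians of -0.04, -0.09, -0.09 and -0.03. Once both columns had equal sums, the medians of these 4 lists were 0.16, 0.13, 0.13 and 0.19, and that of fatty acid oxidation was 0.15. The median over all genes that passed was then 0.15, so these lists lay near it. The 9 genes of lipoprotein and fatty acid uptake had a median of 0.32, from -0.70 to 0.89. At 2-fold, 0 of these 9 were called except with equal sums. Without a filter, LRP1 (1.17) and FABP2 (1.18) of this list also reached 2-fold, with neither above 0.32 FPKM. At a limit of 1.5-fold, the genes at both ends of the range of the 9 were called. The highest of the 9 was the fatty acid transporter SLC27A3, with 0.765 FPKM in normoxia and 1.502 FPKM in hypoxia. The 6 genes of acyl-CoA synthesis had a median of 0.28. In the lists without a called gene, the largest changes were those of CPT1B (0.74), SLC27A3 (0.89), PPARGC1B (-0.99), the lysophospholipase gene ABHD12 (-0.48) and LCAT (0.16).

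**Figure D5:**
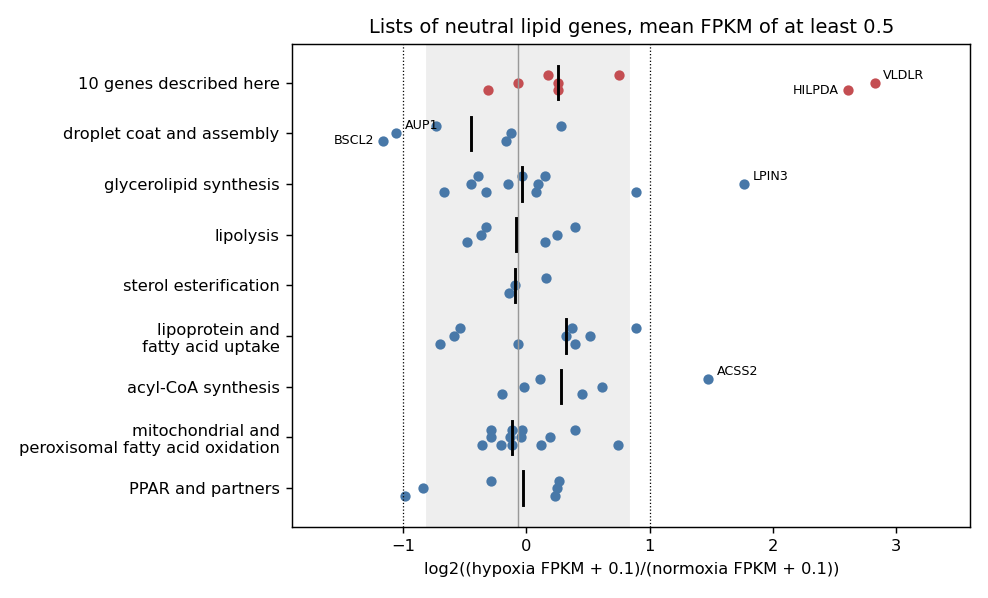
Log2 changes of genes that passed the filter among the 10 genes described here (red) and in 8 lists of neutral lipid genes (blue), each point 1 gene, with black bars at list medians, the grey band from percentile 5 to 95 of all genes, the grey line at their median and dotted lines at 2-fold. Outside the 10 genes, LPIN3, ACSS2, BSCL2 and AUP1 lie beyond the limits.

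The labels were checked with marker genes. All 10 genes of the response to hypoxia, among them CA9 and EGLN3, were called higher, with log2 changes from 1.02 to 5.58. Of 8 markers of squamous epithelium, 7 were listed, with KRT5 the highest at 398 FPKM in normoxia and 442 FPKM in hypoxia. KRT14 was not analysed here. The log2 changes of the 7 ran from -0.63 for KRT6A (5.10 and 3.26 FPKM) to 0.43, with 4 above 0 and 3 below. Of the 5 fibroblast, 4 leukocyte and 6 adipocyte markers, 1 each was listed, none above 0.132 FPKM, and of the 3 endothelial markers CDH5 was listed at 4.78 and 2.83 FPKM; its part in the values above was not tested. The listed FPKM summed to 536005 in normoxia and 458431 in hypoxia. Scaling them to equal sums added up to 0.23 to a log2 change, and less for genes of low level, and moved the median of all genes from -0.07 to 0.15. The split of called genes, 388 higher and 317 lower, then became 706 and 155, and with the changes centred on their median it was 466 and 250.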

How the data were processed

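RNA-seq of SQ20B cells was analysed from a table over 4 libraries in normoxia and 4 in hypoxia. The authors aligned reads with STAR 2.3.0.1 to hg19 and quantified transcripts with the Cufflinks suite 2.1.1 and RefSeq annotation, per the paper's methods and the submitters' processing notes. The deposited FPKM values are the authors', 1 per condition. The table's 4 columns of the authors' own comparison (log2 fold change, test statistic, p-value and q-value) were not used. The planned limma fit needs values of single libraries and was not run.

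Identifiers were paired with symbols through RefSeq of GRCh38.p14, which matched 24293 of 24812 transcripts (97.9%). Loci are those of the table (hg19, counted from 1) and can span neighbouring genes. Changes, filter and calls are as defined above, with Python 3.11.15, numpy 2.4.6, pandas 2.3.3 and matplotlib 3.10.9. The calling step was tested on simulated data, with changes larger than the limit planted only in genes whose normoxia level was above the filter. That test does not cover genes of low level. Named were all 10 genes, and from each list the genes called (at most 4) or, with 0 called, the gene with the largest change. The members and lists were chosen with earlier results of these data known. A gene with no entry was not analysed here. Pseudocount, filter, scaling, fold limit and transcript summing were varied.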

Additional observations from a re-analysis of the deposited data

How the results depend on the processing

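No paired analysis was possible because the table holds 1 value per condition, and for the same reason no replicate could be left out. HILPDA and VLDLR were called higher, and 0 of the 10 genes lower, under all of the 9 alternatives run, and PLIN2 joined them without a filter and LPIN1 at a limit of 1.5-fold. The median log2 change of the genes described, 0.26, was 0.21 with 1 added to each FPKM, 0.28 with 0.01 added, 0.47 with columns scaled to equal sums, 0.33 with centred changes and 0.35 after quantile normalization. With a mean FPKM of at least 1, 3 member transcripts were called higher in place of 5 and 0 lower in place of 1, since fewer passed. Over the pathway lists, the 2 genes called higher became 4 without a filter, 4 with equal sums and 6 at 1.5-fold. The 2 genes called lower became 3 with 0.01 added, 1 with 1 added, 1 with a mean FPKM of at least 1, 0 with equal sums, 1 with centred changes and 7 at 1.5-fold. The counts over the pathway lists were not taken with the most abundant transcript only. DGAT2 was the only member whose sign turned. Adding the unpaired LPIN1 entry, chosen after seeing the data, gave 0.74 for LPIN1. Over all genes, 201 were called higher and 189 lower with 1 added, and 1204 and 1361 at 1.5-fold. Levels under 0.5 FPKM limit what can be said of PLIN2 and PNPLA2 in both conditions and of VLDLR and DGAT1 in normoxia.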

Other observations

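The lipins were set side by side after their values were seen. LPIN1 went from 14.3 to 24.0 FPKM, LPIN2 from 7.62 to 14.2 FPKM and LPIN3 from 0.932 to 3.40 FPKM between normoxia and hypoxia. Their log2 changes were 0.75, 0.89 and 1.76, so that all 3 genes that encode phosphatidate phosphatases of this family were higher in hypoxia, and LPIN3 was the only one called at the settings of the report. LPIN2 was also called with equal sums, at 1.11, and LPIN1 at a limit of 1.5-fold. Over the other pseudocounts and scalings, LPIN2 ranged from 0.82 to 1.11 and LPIN3 from 1.19 to 1.98. Their spread between replicates was not analysed here.

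RXRA, a partner of the PPAR receptors, was also looked up after its value was seen. It went from 10.5 FPKM in normoxia to 5.84 FPKM in hypoxia, a log2 change of -0.84, and PPARGC1B, a coactivator, from 0.969 to 0.439 FPKM. Neither was called. PPARGC1B lay below 0.5 FPKM in hypoxia and passed the filter only through its normoxia value. Its log2 change was -1.12, past the limit, with 0.01 added to each FPKM, and -0.80 with equal sums. The smallest fall over the pseudocounts, scalings and the most abundant transcript alone was -0.45. Of the 6 genes of the PPAR list that passed, 3 lay above 0 (RXRB 0.27, PPARD 0.25 and PPARA 0.23) and 3 below, with a median of -0.03.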
